A study of Mus musculus with 23 samples.

Results

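The genes described here are 8 factors of DNA replication, Cdc6, Cdc7, Cdc45, Mcm3, Mcm10, Pcna, Lig1 and Tyms. They were chosen by name, by a rule that uses no measured value but was written with earlier results of these data known, and are 8 of the 3826 genes on the panel. Expression was measured in 23 mouse mammary carcinomas. Tumours were induced with doxycycline from an age of 6 weeks, and mice with established tumours were randomized to 2 groups of equal mean tumour volume. The control group of 11 tumours received vehicle. The abemaciclib group of 12 tumours received 90 mg/kg of abemaciclib, which inhibits the kinases CDK4 and CDK6, by gavage each day. Tumours were frozen after dose 12, at an interval that the labels do not give as a number. The labels name neither the inducible transgene, its promoter nor the mouse strain, and they number the tumours without naming animals, so the p-values given here measure the spread between these samples.

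Cells copy their DNA once per cycle. In G1, CDC6 helps to load the MCM2-7 helicase, of which MCM3 is a subunit, onto replication origins. At the start of S phase the kinase CDC7 and cyclin-dependent kinases activate that helicase, and CDC45 and MCM10 join it. PCNA then clamps the polymerases to DNA, LIG1 seals the fragments of the lagging strand, and TYMS (thymidylate synthase) makes the thymidine nucleotide. Many of these genes are transcribed by E2F factors, which the retinoblastoma protein holds back until CDK4 or CDK6 phosphorylates it.

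All 8 genes lay lower in the abemaciclib group. By edgeR the difference was largest for Cdc6, at a log2 fold change of -1.19, and smallest for Pcna, at -0.28. By limma-voom it was largest for Mcm10, at -1.83, with Cdc6 at -1.55. No single gene of the panel passed the threshold over all genes by edgeR's quasi-likelihood test, so none of the 8 was called by it (0 of 8, background 0%). At an unadjusted p under 0.05 by the same test, 8 of 8 were lower, where 5.81% of the 2925 genes tested were, and 0 were higher, where 7.59% were. DESeq2's Wald test called 1 of the 8 lower after adjustment over all genes (background 0.444%) and limma-voom with quality weights called 6 (background 2.39%). The 3 tests used the same 23 tumours. These genes were picked with earlier results of these data known, so their shared direction is a description. RNA came from whole tumours, in which fewer dividing cells and less RNA per cell cannot be told apart.

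Total counts ran from 3044380 to 4492736 over the control tumours and from 2756919 to 4990391 over the treated ones. Levels are given as CPM, a gene's counts scaled to library size with TMM factors, which correct totals for differences in composition. Each gene was read through 1 amplicon of about 110 bp, and amplicons differ in how well they amplify, so levels are compared between tumours and not between genes. Pcna gave 662 to 2882 counts per tumour, Tyms 117 to 768, Lig1 130 to 803 and Mcm3 26 to 443. The other 4 were read less deeply, with 8 to 90 counts for Cdc45, 3 to 78 for Cdc6, 5 to 73 for Cdc7 and 0 to 124 for Mcm10. All 13 panel genes of a mammary epithelium marker list, among them Epcam and Krt8, had counts in each of the 23 tumours.

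Short motifs in the promoters of cell cycle genes are bound by E2F factors, by NF-Y (the CCAAT box) and by the DREAM and MuvB complexes (the CHR element). RefSeq promoter windows (GRCm38.p6, 250 bases before to 50 after the start) were found for 8 of 8 genes. Lig1 had 3 windows, Cdc7 had 2 and the others had 1 each. A gene was counted when any of its windows held the motif. A strict E2F motif, TTTCCCGC, TTTCGCGC, TTTGCCGC or TTTGGCGC on either strand, was found for 3 of the 8 (Cdc6, Mcm3 and Lig1), and for 2.60% of 27025 genes with such windows. The CCAAT box, searched on both strands, was found for 4 of the 8 (Cdc45, Mcm3, Mcm10 and Pcna), and for 41.1% of all genes. The CHR element, TTTGAA or TTCGAA on either strand, was found for 2 of the 8 (Cdc7 and Cdc45), and for 21.7% of all genes. The motifs were chosen with the members' windows in view, so these counts are a description. Stretches of 30 bases are shown 5′ to 3′ on the gene's strand, with motif matches in capitals. A motif read on the other strand appears as its reverse complement. The first 3 show the E2F motif of the 3 genes that hold it, at chr11:98908002-98908031 (plus strand), chr1:20820265-20820294 (minus) and chr7:13278841-13278870 (plus).
Cdc6: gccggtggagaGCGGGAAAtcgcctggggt
Mcm3: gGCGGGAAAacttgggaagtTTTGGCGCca
Lig1: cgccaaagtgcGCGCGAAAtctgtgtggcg
The next 3 show a CCAAT box of the genes without an E2F match, at chr16:18811963-18811992 (minus), chr2:5012872-5012901 (minus) and chr2:132253250-132253279 (minus).
Cdc45: accgtgtATTGGaaacttATTGGaaacaca
Mcm10: taacaaagatggCCAATcaggttgctctac
Pcna: accacgggtacgATTGGtccttgaggagag
Mcm3 carries 2 E2F matches in 1 stretch and Cdc45 carries 2 CCAAT boxes in 1 stretch. For Cdc7 and Tyms neither the E2F motif nor the CCAAT box was in the windows, which says only that these letters are not there.

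**Figure D1:**
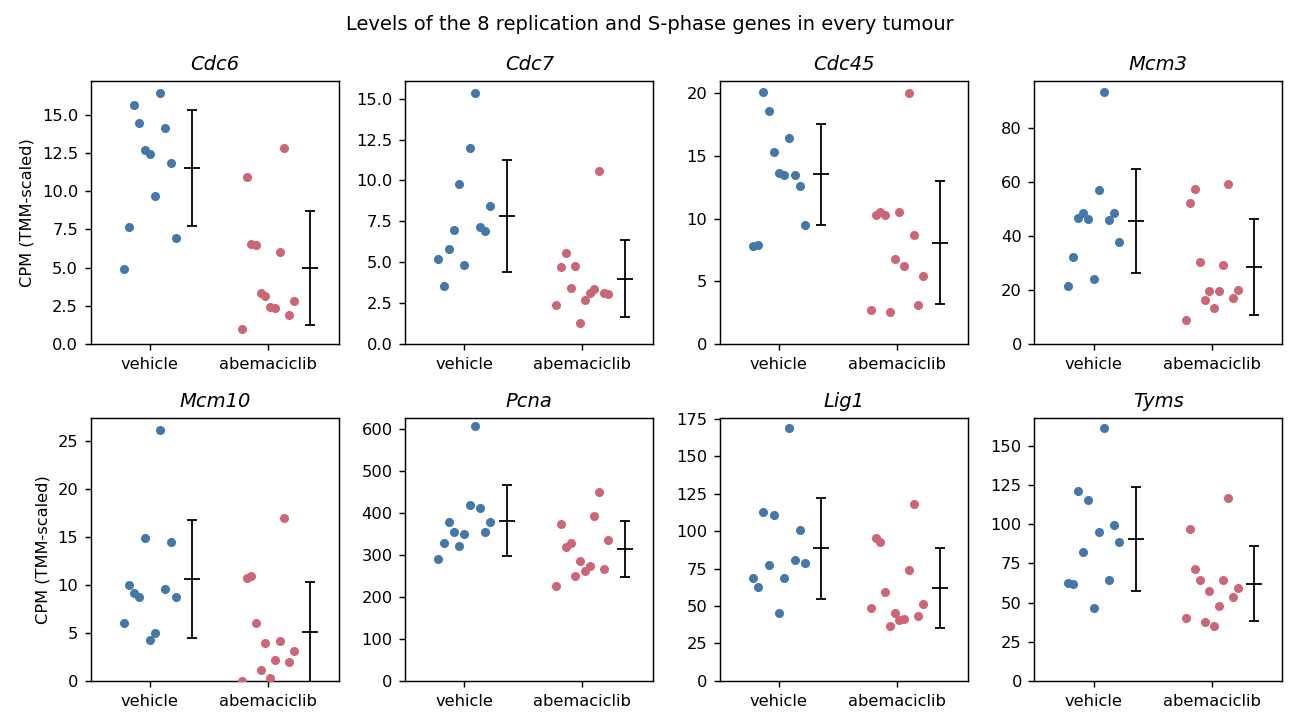
CPM of each gene (linear axis from 0) in the 11 vehicle and 12 abemaciclib tumours. Points are tumours in order of their number, and the bar beside each group is the mean ± SD, which for Mcm10 under abemaciclib reaches below the axis. The groups overlap for every gene, and the highest tumour of the 23 was a vehicle tumour for each.

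Cdc6, the licensing factor that brings the helicase to origins (chromosome 11, 98907801 to 98923940, mm10), was at 4.91 to 16.4 CPM in control tumours, with a median of 12.4. In abemaciclib tumours it was at 1.02 to 12.8 CPM, with a median of 3.25. Of 12 treated tumours, 11 were under the median of the controls and 7 under their lowest value. Tumours 2 and 10 were the highest of the treated group, at 10.9 and 12.8 CPM. The group means were 11.5 ± 3.76 CPM (SD, n = 11) and 4.99 ± 3.71 CPM (SD, n = 12). Their log2 difference was -1.19 (SE 0.324, 95% interval -1.86 to -0.52), with an adjusted p of 0.0912 by edgeR. DESeq2 gave an adjusted p of 0.0222 and limma-voom one of 0.00948. By edgeR with 1 tumour left out, the adjusted p was under 0.05 only without abemaciclib tumour 2 (0.0369) or 10 (0.0279). It reached 0.158 without control tumour 3.

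Mcm3, a subunit of the helicase that CDC6 loads (chromosome 1, 20802968 to 20820312), was at 21.6 to 93.3 CPM in control tumours, median 46.4. It was at 8.88 to 59.4 CPM in abemaciclib tumours, median 19.9. Abemaciclib tumours 2, 3 and 10, at 52.4, 57.5 and 59.4 CPM, lay above the control median, and 7 of the 12 lay below every control tumour. The log2 fold change was -0.67 (SE 0.290, 95% interval -1.26 to -0.07, adjusted p = 0.297 by edgeR). Limma-voom gave an adjusted p of 0.0401 and DESeq2 one of 0.226.

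Cdc7, the kinase that phosphorylates the loaded helicase (chromosome 5, 106964322 to 106984432), was at 3.58 to 15.4 CPM in control tumours, median 6.96. It was at 1.30 to 10.6 CPM under abemaciclib, median 3.26. Abemaciclib tumour 10 alone exceeded the control median, and 8 of the 12 fell short of every control tumour. The log2 fold change was -0.95 (SE 0.279, 95% interval -1.52 to -0.37, adjusted p = 0.124 by edgeR). The adjusted p was 0.0227 by limma-voom, 0.0587 by DESeq2, and 0.0279 by edgeR without abemaciclib tumour 10.

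Cdc45, the factor that makes the helicase active together with the GINS complex (chromosome 16, 18780447 to 18811987), was at 7.79 to 20.1 CPM in control tumours, median 13.5. Under abemaciclib it was at 2.53 to 20.0 CPM, median 7.75. The highest abemaciclib value belonged to tumour 9, the library with the fewest counts, and the other 11 did not exceed 10.6 CPM. The log2 fold change was -0.74 (SE 0.278, 95% interval -1.32 to -0.17, adjusted p = 0.213 by edgeR), or -0.94 without abemaciclib tumour 9. Limma-voom gave an adjusted p of 0.0277 and DESeq2 one of 0.135.

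Mcm10, a fork factor that despite its name is no subunit of the MCM2-7 ring (chromosome 2, 4989714 to 5012791), had the widest range on the log2 scale. Control tumours held 4.23 to 26.1 CPM, median 9.15, and abemaciclib tumours 0 to 17.0 CPM, median 3.50. No read was counted in abemaciclib tumour 1, which allows up to 1.02 CPM at 3 counts (counting error only), and 1 read in tumour 7. Abemaciclib tumours 2, 3 and 10, at 10.7, 10.9 and 17.0 CPM, lay above the control median, and 8 of the 12 below every control tumour. The log2 fold change was -1.03 (SE 0.473, 95% interval -2.00 to -0.06, adjusted p = 0.327 by edgeR). Limma-voom put it at -1.83 (adjusted p = 0.0187) and DESeq2 at -1.04 (adjusted p = 0.259), so the size of the difference varied by more than 1.5 times between tests.

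Pcna, the sliding clamp (chromosome 2, 132249162 to 132253314), differed least. It was at 290 to 607 CPM in control tumours, median 354, and 226 to 449 CPM under abemaciclib, median 302. Of the 12 abemaciclib tumours, 6 lay below every control tumour, and 3, numbers 2, 9 and 10, above the control median. The means were 381 ± 84.0 CPM (SD, n = 11) and 313 ± 66.1 CPM (SD, n = 12). Their log2 difference was -0.28 (SE 0.121, 95% interval -0.53 to -0.03), with an adjusted p of 0.288 by edgeR. Neither limma-voom (adjusted p = 0.0689) nor DESeq2 (adjusted p = 0.272) called it.

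Lig1, the replicative DNA ligase (chromosome 7, 13277283 to 13311433), was at 45.1 to 169 CPM in control tumours, median 78.4, and 36.6 to 118 CPM under abemaciclib, median 50.1. Its groups overlapped widely, with 4 of the 12 abemaciclib tumours below every control tumour. The log2 fold change was -0.51 (SE 0.217, 95% interval -0.95 to -0.06, adjusted p = 0.286 by edgeR). The adjusted p was 0.0386 by limma-voom and 0.233 by DESeq2.

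Tyms, thymidylate synthase and the target of fluorouracil (chromosome 5, 30058202 to 30073617), was at 46.6 to 162 CPM in control tumours, median 88.4, and 35.3 to 117 CPM under abemaciclib, median 58.2. Only 3 of the 12 abemaciclib tumours lay below every control tumour, although 10 lay below the control median. The log2 fold change was -0.55 (SE 0.206, 95% interval -0.97 to -0.12, adjusted p = 0.213 by edgeR). The adjusted p was 0.0653 by limma-voom and 0.150 by DESeq2.

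As a group, 7 of the 8 had a log2 fold change of -0.5 or lower, against a background of 3.83%. At least 10 of 12 abemaciclib tumours lay below the control median for 4 of the 8 (Cdc6, Cdc7, Cdc45 and Tyms, background 9.54%). At least 6 of 12 lay below the lowest control tumour for 6 of the 8 (all but Lig1 and Tyms, background 4.14%). The median log2 fold change was -0.71 over the 8 and 0.0055 over all genes tested. The order of fold changes differed between edgeR and limma-voom, which put Mcm10 before Cdc6 and Lig1 before Tyms. Ordered by edgeR's fold change, the genes ran Cdc6, Mcm10, Cdc7, Cdc45, Mcm3, Tyms, Lig1 and Pcna. For each of the 7 neighbouring pairs in that order, the log2 ratio of the 2 genes within a tumour differed between the groups by less than its pooled SD over single tumours. That SD is wider than the error of a difference of means, and no pair was tested. Between the ends of the order, the log2 ratio of Cdc6 to Pcna differed by -1.05 between the groups, with a pooled SD of 0.588. That difference was not tested, since the order came from the same tumours. The 3 genes with an E2F match in the promoter stretches printed above (Cdc6, Mcm3 and Lig1) had log2 fold changes of -1.19, -0.67 and -0.51, and the 5 without one ran from -1.03 to -0.28, so the 2 sets overlapped.

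Spread between tumours differed from gene to gene. In abemaciclib tumours the coefficient of variation was 102% for Mcm10, 74.4% for Cdc6, 62.1% for Mcm3, 60.2% for Cdc45 and 58.7% for Cdc7, and 42.8%, 38.8% and 21.1% for Lig1, Tyms and Pcna. Counting error alone, the inverse square root of the mean count, would give 24.6% for Cdc7, 21.8% for Cdc6, 21.0% for Mcm10 and 17.7% for Cdc45, and 2.82% for Pcna. In control tumours the coefficient of variation was smaller for 7 of the 8, at 57.8% for Mcm10, 32.7% for Cdc6 and 29.7% for Cdc45. Pcna was the exception, at 22.1% in control tumours. Whether spread differed between the groups was not tested.

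The same tumours tended to be high or low for all 8 genes. Control tumour 8 had the highest value of its group for 7 of the 8, all but Cdc45. Abemaciclib tumour 10 had the highest of its group for 7 of the 8, again all but Cdc45, and lay above the control median for those 7. Abemaciclib tumours 2 and 3 lay above the control median for 5 and 3 of the 8, and neither was below the lowest control tumour for any. At the other end, abemaciclib tumours 1, 5, 7, 8 and 11 each lay below the lowest control tumour for 7 of the 8. The share of all genes tested below the lowest control tumour was not computed for single tumours, so these counts describe the 8 alone. The mean of the 8 genes on the log2 scale, centred over all tumours, ran from -0.17 to 1.33 in control and from -1.50 to 0.78 in abemaciclib tumours.

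**Figure D2:**
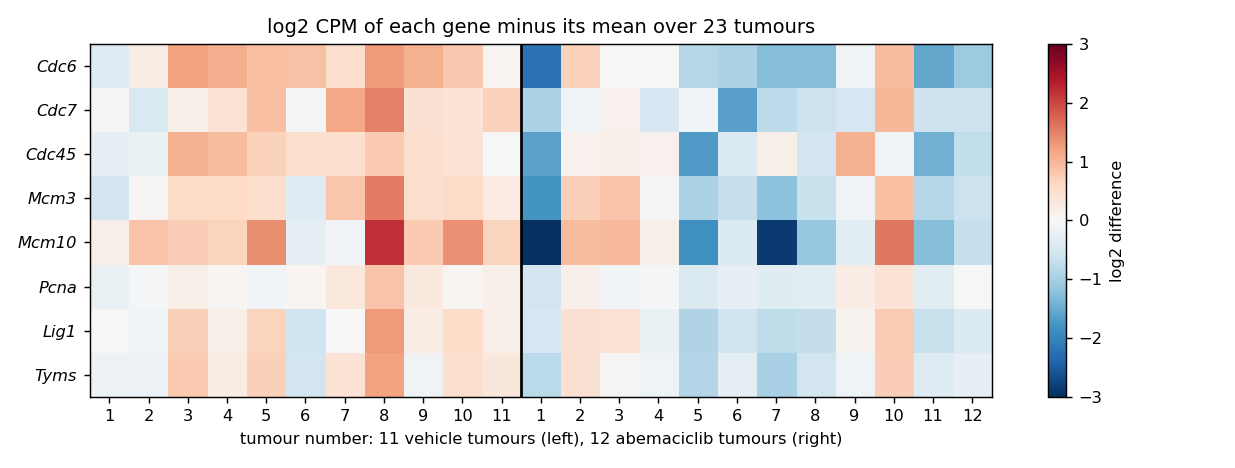
Each cell is 1 gene in 1 tumour, as log2 CPM (prior count 2) minus that gene's mean over the 23 tumours. Values beyond 3 on the log2 scale take the end colour. Control tumour 8 and abemaciclib tumour 10 are warm in most rows, while abemaciclib tumours 1, 5, 7, 8 and 11 are cool in most.

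With the group means removed, the 8 genes varied together over the 23 tumours. Pearson's r between pairs ran from 0.246 (Cdc7 with Cdc45) to 0.917 (Lig1 with Tyms, Spearman's rho 0.898), with a median of 0.716 over 28 pairs, and 25 of the 28 were above 0.5. The median over all pairs of tested genes was -0.0016. Leaving out the 2 tumours farthest from the median of Lig1, the r of Lig1 with Tyms was 0.869. Mcm3 followed Mcm10 (r = 0.890, rho 0.807) and Cdc6 (r = 0.864, rho 0.858). Cdc45 and Cdc7 were the least like the rest. Both have low counts, but so do Cdc6 and Mcm10, whose r with each other was 0.806. The part of counting error in this was not tested. Pairs share their libraries and their scaling, so these values describe the tumours and carry no test.

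**Figure D3:**
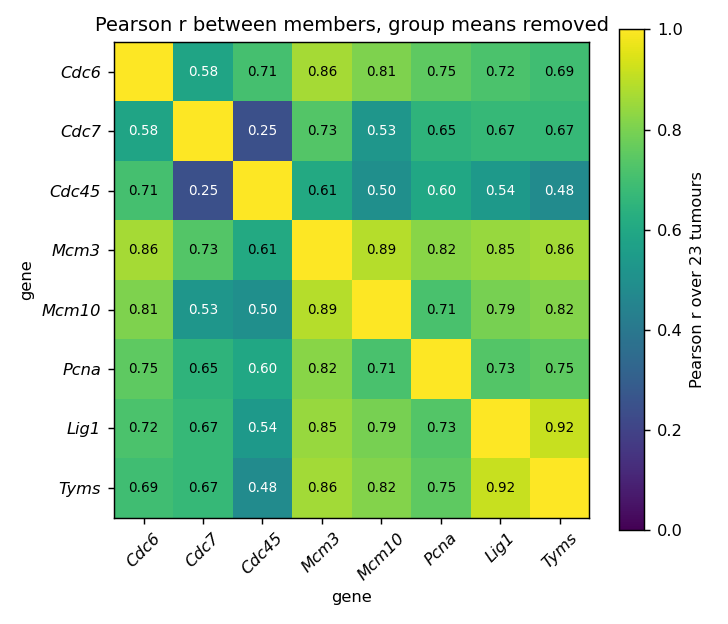
Pearson's r of log2 CPM for each pair of the 8 genes over 23 tumours, after each group's mean was removed. Values stand in the cells. Lig1 and Tyms are the most alike at 0.92 and Cdc7 and Cdc45 the least at 0.25.

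Across the panel, the genes most like each member included many genes of the cell cycle. For Mcm3 they were Mcm4 (r = 0.960), another subunit of the same ring, Ccna2 (0.959), the S-phase and G2 cyclin, and Aurka (0.949), a spindle kinase. For Cdc6 they were Cdk1 (0.919), the mitotic kinase, Aurkb (0.916), of the chromosomal passenger complex, and Cenpe (0.903), a kinetochore motor. For Mcm10 they were Ccnb1 (0.931), the mitotic cyclin, Ccna2 (0.927) and Cdc20 (0.917), which activates the anaphase-promoting complex. For Pcna they were Cks2 (0.920), a CDK-binding protein, Pold2 (0.882), a subunit of the polymerase that PCNA clamps, and Sms (0.879), spermine synthase. For Lig1 and Tyms they included S100a4 (0.899 and 0.901) and Kif2c (0.890 and 0.900), with Hnrnpa1 (0.889) for Lig1 and Mad2l1 (0.914) for Tyms. The neighbours of Cdc7 and Cdc45 had lower r values. Those of Cdc7 included Slc20a1 (0.797), a phosphate transporter, and Dsc2 (0.778), a desmosomal cadherin. Those of Cdc45 were Calm3 (0.828), a calmodulin gene, Cdk6 (0.815) and Ncapd2 (0.808), a condensin subunit. All of these are within-group values over 23 tumours, and Spearman's rho ran from 0.717 to 0.937. They were picked from the 3 highest of all tested genes outside the 8, so they carry no test.

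Mki67, the common marker of dividing cells, had an r of 0.920 with Mcm3, 0.886 with Mcm10, 0.850 with Cdc6, 0.849 with Tyms, 0.825 with Lig1 and 0.800 with Pcna. Its r was 0.627 with Cdc45 and 0.612 with Cdc7. Cdk4, a target of the drug, had a log2 difference of -0.14 (SE 0.222, adjusted p = 0.829 by edgeR), with an r of 0.501 to 0.778 to the 8. Cdk6 was at 0.06 (SE 0.206, adjusted p = 0.941), with a sign that turned in 8 of 36 alternatives, among them library totals alone, housekeeping scaling and limma-voom. Dnmt1, whose protein copies methylation behind the fork, was at -0.14 (SE 0.103, adjusted p = 0.585) and had an r of 0.187 to 0.423 to the 8.

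The other replication genes on the panel lay on the same side. Of 70 listed genes of licensing, origin firing, the fork and nucleotide supply, 21 were on the panel and 19 were tested. All 19 had negative log2 fold changes, where 48.9% of all genes tested did. The share was 94.7% in 10 of 36 alternatives, each of them with 1 or 2 tumours left out, and 100% in the others. Their median was -0.35, 8 had an unadjusted p under 0.05, and 0 passed over all genes by edgeR. The number at an unadjusted p under 0.05 was 5 without control tumour 8 and 13 without abemaciclib tumour 10. The share over all genes tested was not computed for those fits. The 4 tested licensing genes had a median of -0.59. Gmnn, which encodes geminin, an inhibitor of relicensing, was at -0.79 (SE 0.279, adjusted p = 0.190), the helicase subunits Mcm2 and Mcm4 at -0.52 and -0.43 (adjusted p = 0.441 and 0.435), and Orc1, of the origin recognition complex, at -0.67 (adjusted p = 0.561). Of 2 tested firing genes, Topbp1, which helps to load CDC45, was at -0.33 (adjusted p = 0.398) and Rif1, which opposes CDC7 action, at -0.01 (adjusted p = 0.976).

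At the fork, 9 genes were tested with a median of -0.35. Rpa3, a subunit of the complex that coats single-stranded DNA, was at -0.70 (SE 0.211, adjusted p = 0.127 by edgeR), and Pold2, the polymerase delta subunit, at -0.48 (SE 0.148, adjusted p = 0.134). For each, 11 of 12 treated tumours were under the median of the controls. Top2a, a topoisomerase made mostly in S and G2 phase, was at -1.03 (SE 0.441, adjusted p = 0.288). Of the 4 tested genes of nucleotide supply, with a median of -0.27, Dck, deoxycytidine kinase, was at -0.56 (SE 0.170, adjusted p = 0.127), with 12 of 12 treated tumours under the median of the controls. Shmt1 and Mthfd1, enzymes of the folate cycle that feeds TYMS, were at -0.29 (adjusted p = 0.245) and -0.26 (adjusted p = 0.442).

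**Figure D4:**
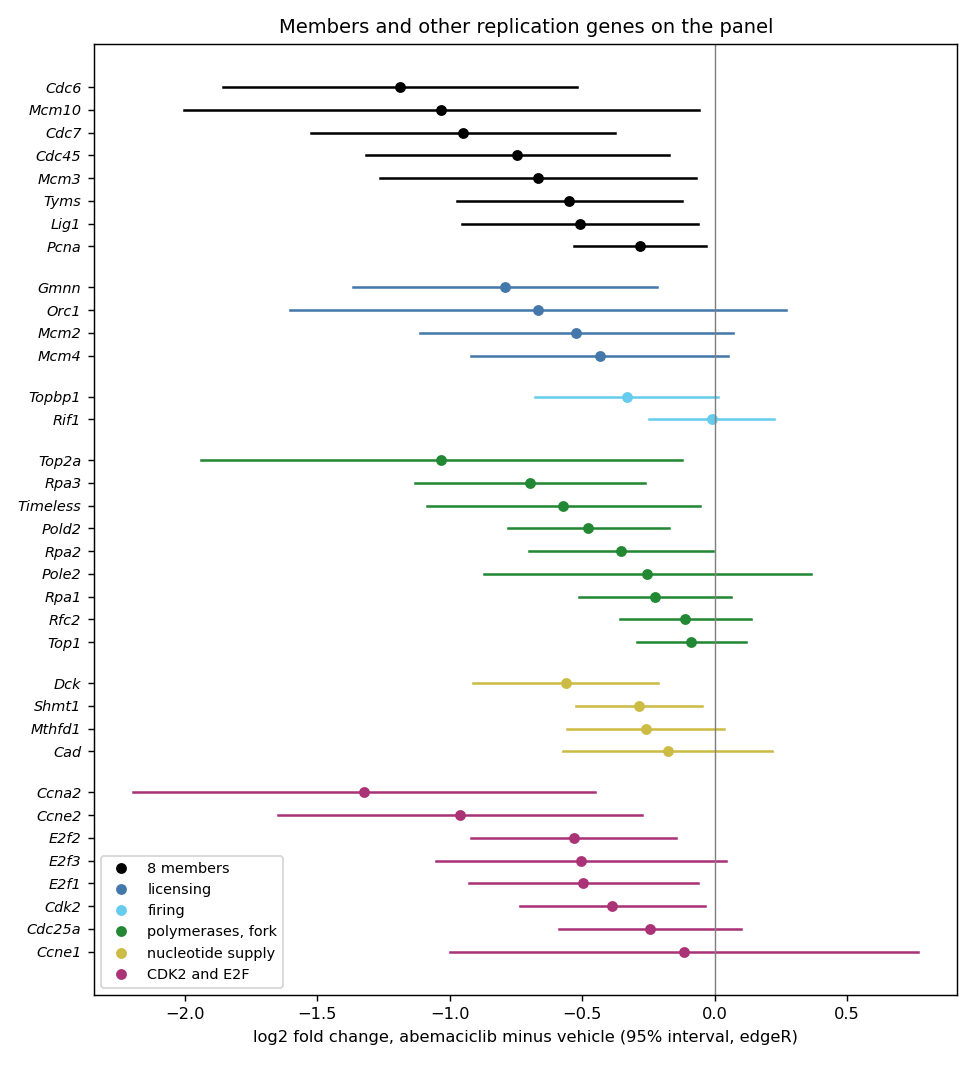
Log2 fold change, abemaciclib minus vehicle, with its 95% interval from edgeR, for the 8 members and the other tested genes of replication and of CDK2 and E2F. Points lie left of 0 for each of the genes drawn, and intervals exclude 0 for the 8 members and for a part of the others, while none passed after adjustment over all genes.

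Upstream of replication, 8 genes of the CDK2 and E2F step were tested, all negative, with a median of -0.50 and 5 at an unadjusted p under 0.05. Ccna2 was at -1.32 (SE 0.423, adjusted p = 0.146 by edgeR), the cyclin Ccne2 at -0.96 (SE 0.334, adjusted p = 0.185) and E2f2 at -0.53 (SE 0.188, adjusted p = 0.190). The 17 tested mitotic genes were negative in 17 of 17, with a median of -1.03. Among them Smc4, of condensin, was at -0.84 (adjusted p = 0.0578), Bub1b, of the spindle checkpoint, at -1.27 (adjusted p = 0.124), Cdc25c, which activates CDK1, at -1.38 (adjusted p = 0.125) and Mki67 at -1.04 (adjusted p = 0.150). Within groups, the mean of the 8 members followed the mean of the mitotic genes with r = 0.968 (rho 0.969, 0.952 without the 2 farthest tumours) and that of the CDK2 and E2F genes with r = 0.972 (rho 0.969, 0.963 without the 2 farthest).

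Some reads cannot be assigned with certainty, since the position of each amplicon is not known here. In the GENCODE M21 annotation of GRCm38, Cdc45 overlaps Ufd1 by 209 bp and Lig1 overlaps Zswim9 by 1439 bp on the opposite strand. A processed pseudogene, Pcna-ps2, matches the Pcna transcript over 781 bp at 99.2% identity, and Gm9430 matches Cdc6 over 1528 bp at 95.2%. The longest Tyms transcript shares a stretch of at least 110 bp at 95% identity or more with transcripts of 29 other genes. Cdc7, Mcm3 and Mcm10 had no such match.

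Markers of other cell types also differed between tumours. Macrophage markers, 5 genes on the panel, summed to 588 to 955 CPM in control and 621 to 1655 CPM in abemaciclib tumours, and 5 of 5 had positive log2 fold changes (median 0.45), with Msr1 at 0.73 (adjusted p = 0.0578 by edgeR) and C1qa at 0.47 (adjusted p = 0.111). Mammary epithelium markers summed to 6657 to 12539 and 5737 to 19285 CPM, with 7 of 13 negative and a median of -0.02. Fibroblast markers were positive in 7 of 8 (median 0.34), endothelial markers in 7 of 8 (0.10), T and B cell markers in 4 of the 4 tested of 11 on the panel (0.35) and adipocyte markers in 2 of the 3 tested (0.40). Summed levels ran from 3227 to 8064 and 1516 to 20255 CPM for fibroblast, 387 to 829 and 306 to 703 for endothelial, 10.5 to 58.8 and 14.8 to 84.2 for T and B cell, and 54.5 to 389 and 77.4 to 574 for adipocyte markers. No marker was at 0 in every tumour, while 7 of the 11 T and B cell markers and 2 of the 5 adipocyte markers were at 0 in some. Of 7 housekeeping genes, 4 were negative, with a median of -0.02. Among the 7, 1 was higher at an unadjusted p under 0.05 by edgeR, where 7.59% of all genes tested were.

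The mean of the 8 members followed these lists unevenly within groups. Its r with adipocyte markers was -0.596 (rho -0.581, -0.551 without the 2 farthest tumours). In each group alone it was -0.701 (control) and -0.568 (abemaciclib). With endothelial markers r was -0.345 over both groups, -0.729 in control and -0.205 in abemaciclib tumours, and -0.254 without the 2 farthest tumours. With macrophage markers it was -0.172, with opposite signs in control (0.312) and abemaciclib tumours (-0.387), and -0.151 without the 2 farthest. Fibroblast markers gave 0.076, with -0.446 in control and 0.220 in abemaciclib tumours, and 0.099 without the 2 farthest. T and B cell markers gave 0.063, with -0.138 in control and 0.187 in abemaciclib tumours, and -0.126 without the 2 farthest. Mammary epithelium markers gave 0.239, with -0.445 in control and 0.684 in abemaciclib tumours. Without the 2 farthest tumours that r was 0.0047, so the value over both groups rests on them. The TMM scaling factor, at 0.860 to 1.26 in control and 0.805 to 1.13 in abemaciclib tumours, had an r of 0.861 with the mean of the 8 (rho 0.809, 0.857 without the 2 farthest). The share of the small nuclear RNA Rn7sk had an r of -0.516. The part of cell makeup in the lower level of the 8 genes was not tested. With no scaling factor, using library totals alone, the 8 genes were still negative, from -1.27 for Cdc6 to -0.41 for Pcna, in a fit where the median of all genes moved by -0.13 and 71.2% of genes were negative.

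The same 2 tumours moved most of the fold changes furthest. For Cdc7, Mcm3, Mcm10, Pcna, Lig1 and Tyms, the difference was largest without abemaciclib tumour 10 and smallest without control tumour 8. For Cdc6 it was largest without abemaciclib tumour 10 and smallest without abemaciclib tumour 1, and for Cdc45 without abemaciclib tumours 9 and 5. Leaving out each tumour in turn, all 8 stayed negative in each of the 23 fits. Without control tumour 8, the one highest for 7 of the 8, Pcna was at -0.20 and Lig1 at -0.38. In that fit the number of members lower at an unadjusted p under 0.05 was 4 in place of 8. The share of all genes tested at that p was not computed for it. Without abemaciclib tumour 10, Cdc6 was at -1.41, Cdc7 at -1.18 and Mcm10 at -1.36, and edgeR called Cdc6 and Cdc7.

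**Figure D5:**
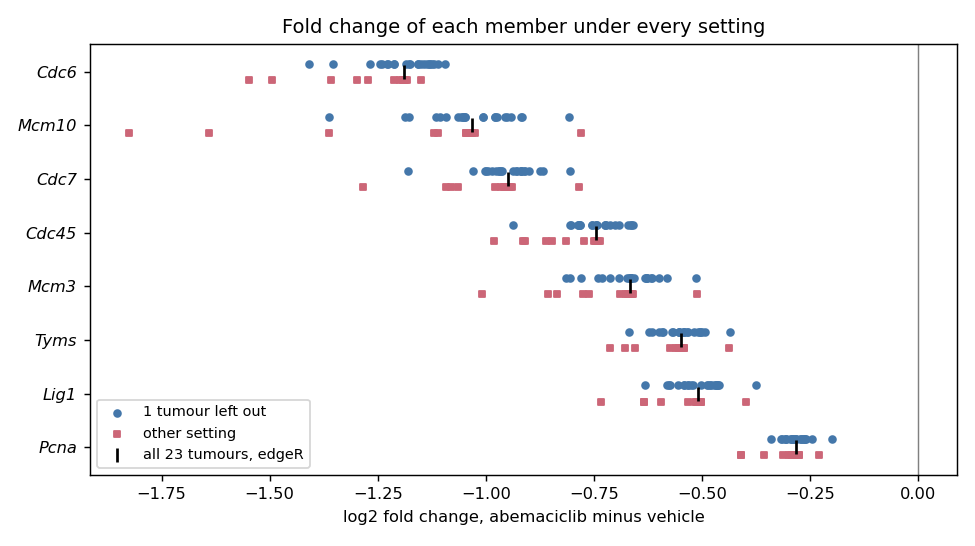
Log2 fold change, abemaciclib minus vehicle, of each gene in the reported fit (black bar), with 1 tumour left out (circles) and under the other settings (squares). Points for all 8 genes lie left of 0, and Mcm10 spreads the most, from -1.83 to -0.78.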

How the data were processed

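RNA of 23 tumours was read with an Ion AmpliSeq custom panel, 1 amplicon per gene, per the labels' protocols. Whole-number read counts for each panel gene were deposited, with no scaling visible in the values. The submitters' processing notes name mm10 as build, and no source used here names an aligner or counter. No label mentions molecular identifiers, so PCR copies may be counted. Totals were 2756919 to 4990391 counts.

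The main test was edgeR 4.0.16 under R 4.3.3, with filterByExpr with the groups (2925 of 3826 genes kept, all 8 members among them), TMM, glmQLFit and glmQLFTest, two-sided, Benjamini-Hochberg adjustment over all tested genes at 0.05. SEs are the log2 fold change over the root of F. Correlations use log2 CPM with a prior count of 2, centred within groups. In 253 pairwise chi-square comparisons of libraries, the lowest ratio to the degrees of freedom was 18.4, well above sampling noise. Transcripts were compared with blastn 2.17.0. DESeq2 1.42.0 and limma 3.58.1 served as alternatives, with other scalings and filters, a replicate block and leaving out each tumour. Fits without abemaciclib tumours 3 and 10, and without control tumour 8 and abemaciclib tumour 9, were added after seeing the data.

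Counts were simulated for this comparison over 2920 genes. The fit recovered 37 of 66 genes changed 1.5-fold, 55 of 66 changed 2-fold and 65 of 66 changed 4-fold. Of the unchanged genes, 5 of 2722 were called. Genes were drawn independently of each other, and the 8 members were kept out of those changed. These shares therefore need not hold for the 8 members.

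The members and lists were chosen with earlier results of these data known. Named genes are the 8 members, up to 3 genes with the smallest p from each list, Mki67, Cdk4, Cdk6 and Dnmt1, and the 3 genes most correlated with each member. A gene named by this rule is not reported here. Others named were chosen after their values were seen.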

Additional observations from a re-analysis of the deposited data

How the results depend on the processing

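All 8 members stayed negative in each alternative that tested them. A filter at a mean count of 50 left out Cdc6, Cdc7, Cdc45 and Mcm10. The number of genes called by edgeR, 0 lower and 0 higher, became 13 and 47 with DESeq2's Wald test and 70 and 57 with limma-voom, 1 lower with library totals alone, 61 and 32 without abemaciclib tumours 3 and 10, and 1 and 1 without control tumour 8 and abemaciclib tumour 9. With 1 tumour left out it ran from 0 to 26 lower and 0 to 21 higher, the highest without abemaciclib tumour 10. Of the 8 members, 0 were called lower by edgeR, 1 by DESeq2, 6 by limma-voom, 5 without abemaciclib tumours 3 and 10, and 0 to 2 with 1 tumour left out. The calls gained were Cdc6 by DESeq2 (-1.19), then by limma-voom Cdc6 (-1.55), Cdc7 (-1.06), Cdc45 (-0.98), Mcm3 (-0.86), Mcm10 (-1.83) and Lig1 (-0.63). Without abemaciclib tumours 3 and 10 they were Cdc6 (-1.50), Cdc7 (-1.28), Mcm3 (-1.01), Mcm10 (-1.64) and Lig1 (-0.73). With 1 tumour left out, Cdc6 ran from -1.41 to -1.10, with adjusted p of 0.0279 to 0.158 by edgeR. Cdc7 ran from -1.18 to -0.80, with adjusted p of 0.0279 to 0.210. Cdk6, at 0.06, turned to -0.040 with library totals alone, -0.10 with housekeeping scaling, -0.042 with limma-voom, -0.12 without abemaciclib tumours 3 and 10 and -0.033 without control tumour 8 and abemaciclib tumour 9, and ran from -0.037 to 0.13 with 1 tumour left out. The cause of these shifts was not tested.

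Equal tumour numbers do not mark shared animals in the labels. Over the 11 shared numbers, the correlation of deviations ran from -0.43 to 0.45, over 0.1 for 5, and 2 control tumours were most like the abemaciclib tumour of their number. With the replicate number as a block, over 22 tumours, Cdc6 was at -1.36 (adjusted p = 0.159 by edgeR) and 0 genes were called. Relative to the mean, counting error was largest for Cdc6, Cdc7, Cdc45 and Mcm10, at mean counts of 16.6 to 31.9 in abemaciclib tumours. Their spread between tumours was wider than counting error alone would give. The part of depth in their results was not tested.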

Other observations

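Genes of the S-phase checkpoint, which slows replication when forks stall, had values on both sides of 0 with TMM scaling. Of 8 tested, 6 had negative and 2 positive log2 fold changes, with a median of -0.14, and 1 was lower at an unadjusted p under 0.05. The split depends on the scaling, since 100% were negative with library totals alone (median -0.27) and with housekeeping scaling (median -0.21). The share was 62.5% to 87.5% with 1 tumour left out. The gene at an unadjusted p under 0.05 was Chek1, the effector kinase, at -0.86 (SE 0.339, adjusted p = 0.233 by edgeR), with 10 of 12 treated tumours under the median of the controls. Rad17 and Hus1, which load and form a checkpoint clamp, were at -0.18 (adjusted p = 0.529) and -0.21 (adjusted p = 0.583). The sensor kinases Atr and Atm, chosen after their values were seen, were at -0.03 (95% interval -0.40 to 0.34) and 0.05 (95% interval -0.21 to 0.31). Wee1, which restrains CDK1 and CDK2, also chosen after its value was seen, was at 0.09 (95% interval -0.38 to 0.56). Within groups the mean of these 8 genes followed the mean of the 8 replication members with r = 0.517 (rho 0.486, 0.538 without the 2 farthest tumours).

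The E-type cyclins, which drive CDK2 at the start of S phase, gave different values. Ccne2 was at a log2 fold change of -0.96 (95% interval -1.65 to -0.27), with 10 of 12 treated tumours under the median of the controls. Ccne1, chosen after its value was seen, was at -0.11 (95% interval -0.998 to 0.77), with 8 of 12 under it. The intervals overlap and the difference between the 2 genes was not tested.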
